A study of Mus musculus with 6 samples.

Results

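The genes described here are 10 components of major histocompatibility complex (MHC) class II antigen presentation, chosen by name from the 22513 entries of the expression table of mouse thymic stroma. They are the class II chains H2-Aa, H2-Ab1 and H2-Eb1, the invariant chain Cd74, the transactivator Ciita, the peptide editor subunits H2-DMa and H2-DMb1, the editor's inhibitor subunits H2-Oa and H2-Ob, and the protease cathepsin S (Ctss). All 10 were found, each in 1 entry. When fetal thymic stroma was stimulated with RANK ligand (RANKL), H2-Aa, H2-Eb1, H2-Oa, H2-Ob and Ctss rose, with fitted folds from 1.46 for H2-Aa to 3.16 for H2-Ob. H2-Ab1, Cd74, Ciita, H2-DMa and H2-DMb1 did not pass the test. Of all genes tested, 10.5% rose by it. Under RANKL, H2-Oa, H2-Ob and Ctss were lower in both Jmjd6-/- libraries than in both wild-type (WT) libraries, as were 26.2% of all genes tested. No member passed the test for a difference between the genotypes.

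MHC class II molecules are pairs of an α and a β chain that carry peptides from endosomes to the cell surface, where CD4+ T-cells read them. The invariant chain fills the groove of a new α-β pair and guides it to the endosome. Cathepsins, with cathepsin S the best known in many antigen-presenting cells, then trim the invariant chain down to a remnant called CLIP. H2-DM exchanges CLIP for other peptides, and H2-O binds H2-DM and holds it back. Ciita, which does not bind DNA itself, switches the family on by docking on a promoter module of X and Y boxes that is occupied by RFX, CREB and NF-Y proteins. In the thymus, cortical thymic epithelial cells (cTECs) use class II to select CD4+ T-cells, and medullary thymic epithelial cells (mTECs) use it to display tissue-specific self-antigens.

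RNA was sequenced from fetal thymus organ culture (FTOC) of C57BL/6 background, from embryos at E15.5, and every culture was treated for 4 days with 2-deoxyguanosine (2-DG), which depletes haematopoietic cells. The unstimulated WT and the unstimulated Jmjd6-/- stroma gave 1 library each. WT and Jmjd6-/- stroma stimulated for 4 days with RANKL, the ligand that induces Aire in mTECs, gave 2 libraries each. Jmjd6-/- embryos lack the lysyl hydroxylase Jmjd6 in all cells, and the organ culture is a mixture of stromal cell types, so the values are those of the mixture. The replicates are called technical duplicates in the labels and samples in the study's text, so the p-values below measure the spread between these libraries, which may be technical. The treatment field of the labels names RANKL for all samples. Titles and the stimulation field separate the unstimulated ones, and Aire was at 0.142 and 0.473 FPKM in these against 67.1 to 79.7 FPKM in the stimulated libraries. Jmjd6 was at 25.9 to 32.5 FPKM in WT libraries and at 1.32 to 1.96 FPKM in Jmjd6-/- libraries. FPKM counts sequenced fragments of a gene scaled by exon length and by library size, so levels may be compared between genes. The libraries held an estimated 15400000 to 30500000 fragments.

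Under RANKL, the WT libraries differed from each other more than the Jmjd6-/- libraries did, with a median absolute log2 difference of 0.276 against 0.0767 over 12587 entries (mean of 1 FPKM or more). The members shared in this spread. WT replicate 2 was above WT replicate 1 in 9 of 10 members, all but Ciita, while this held for 46.5% of the 15894 genes tested. Hence the members' changes are also given without each WT RANKL library where that changes a direction, or a call for the RANKL effect. For the other listed genes such fits are not given.

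The promoter module recognised through Ciita is printed here for the members whose promoter holds it, since it is a feature that they share and that the choice of members did not use. RefSeq promoters (GRCm38.p6, 250 bases before to 50 bases after each transcript start) were found for 7 of the 10 members, which were H2-Aa, H2-Eb1, H2-DMa, H2-DMb1, H2-Oa, H2-Ob and Ctss. The module was searched as AGNNAC, a core of the X box, followed on the same strand by ATTGG, the core of the Y box, with starts 28 to 40 bases apart. It was found in 4 of the 7 genes, or 4 of their 8 promoters, and in 2.27% of all 32851 promoters. ATTGG alone was in 37.4% and AGNNAC alone in 90.4% of all promoters, on either strand. H2-Aa has GGCAAC in place of the X core. The core GNAAC, which overlaps AGNNAC and was chosen after seeing the H2-Aa promoter, gave the module in 5 of the 7 genes. These were 5 of the 8 promoters, beside 2.12% of all promoters. Each sequence below is 90 bases of the gene's own strand, lower case except for the X core and the Y core.
H2-Oa (chr17:34092261-34092350, plus strand): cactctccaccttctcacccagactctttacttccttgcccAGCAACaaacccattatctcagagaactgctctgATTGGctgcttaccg
H2-Ob (chr17:34238773-34238862, plus strand): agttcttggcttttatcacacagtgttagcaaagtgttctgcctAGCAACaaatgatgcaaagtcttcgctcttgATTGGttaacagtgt
H2-DMb1 (chr17:34153055-34153144, plus strand): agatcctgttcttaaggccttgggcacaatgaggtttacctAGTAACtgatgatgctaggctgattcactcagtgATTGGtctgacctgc
H2-Eb1 (chr17:34305733-34305822, plus strand): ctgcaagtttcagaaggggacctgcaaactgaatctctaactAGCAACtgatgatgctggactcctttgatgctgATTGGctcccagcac
H2-Aa (chr17:34287857-34287946, minus strand): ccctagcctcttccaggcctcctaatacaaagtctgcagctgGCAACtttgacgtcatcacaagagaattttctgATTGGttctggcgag
H2-Eb2 (chr17:34325500-34325589, plus strand, a class II β gene outside the 10): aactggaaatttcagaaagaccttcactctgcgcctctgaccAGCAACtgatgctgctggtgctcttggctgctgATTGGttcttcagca
In these windows ATTGG began 43 to 61 bases before the transcript start in the members and 100 bases before it in H2-Eb2, and the starts of the cores lay 31 to 34 bases apart. The windows of H2-Oa, the editor's inhibitor, and of H2-Eb1, a classical chain, thus carry the same X letters, AGCAAC. The RefSeq start of H2-Oa lies inside the span that the expression table gives for the gene. Neither H2-DMa nor Ctss held the module in this form. A match of letters is a description of the sequence and was not tested for binding.

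Over all libraries the members spanned more than 4 orders of magnitude on the FPKM scale. In every library Cd74 was highest, followed by H2-Aa, H2-Ab1 and H2-Eb1, and H2-Ob was lowest. The 4 most abundant genes held 95.004 to 96.2% of the members' summed FPKM, and the 10 members together held 0.934% of all FPKM in unstimulated WT stroma and 1.47% in WT RANKL replicate 2, the lowest and highest libraries. Cd74 ranked between 7 and 16 among all entries and H2-Aa between 21 and 62. The order below H2-Eb1 was less firm. H2-DMa and Ctss were at 68.7 and 69.2 FPKM in unstimulated Jmjd6-/- stroma, and H2-DMa was above Ctss only in unstimulated WT stroma. H2-DMa was above H2-DMb1 in each library, although their ranges overlapped in RANKL-stimulated WT stroma. The mean of Cd74 there was 2935 ± 1014.1 FPKM (SD, n = 2) and that of H2-Aa 1951 ± 292 FPKM, with Cd74 the higher in each library. H2-Oa stood above Ciita in both RANKL-stimulated WT libraries and below it in the other libraries.

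**Figure D1:**
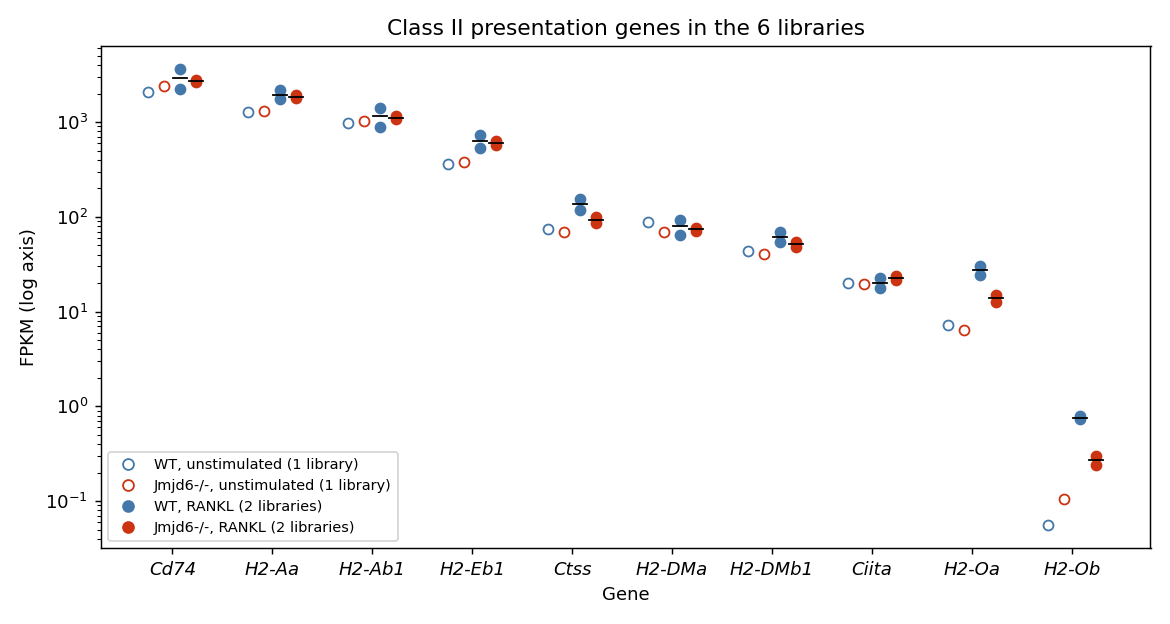
FPKM on a log axis of the 10 members, ordered by level, with a point for each of the 6 libraries, open for unstimulated and filled for RANKL-stimulated stroma, and a bar for the mean of 2 libraries. Cd74 and the class II chains lie above 350 FPKM in all libraries, and H2-Oa and H2-Ob show the widest gaps between conditions.

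The classical chains came first. H2-Aa (identifier XLOC_008687, chr17:34282751-34287771, minus strand, mm10), the α chain of I-A, was at 1279.6 FPKM in WT and 1319.8 FPKM in Jmjd6-/- stroma without RANKL. Under RANKL it was at 1744.2 and 2158 FPKM in WT and 1938 and 1784 FPKM in Jmjd6-/- stroma. All 4 stimulated libraries were above both unstimulated ones, and the genotypes overlapped. H2-Eb1 (XLOC_008156, chr17:34305867-34316674), the β chain of I-E, showed the same pattern, with 359 and 377 FPKM in unstimulated WT and Jmjd6-/- stroma, 528 and 722 FPKM in WT under RANKL, and 635 and 579 FPKM in Jmjd6-/- under RANKL. H2-Ab1 (XLOC_008155, chr17:34263227-34269418), the β chain that pairs with H2-Aa, did not: it was at 980.4 and 1023 FPKM without RANKL, at 895 and 1424 FPKM in stimulated WT and at 1149.8 and 1083 FPKM in stimulated Jmjd6-/- stroma. The lowest and the highest H2-Ab1 values both came from stimulated WT libraries. The ratio of H2-Ab1 to H2-Aa on the FPKM scale was 0.766 and 0.775 in the unstimulated libraries and 0.513 to 0.660 in the stimulated ones. How often other gene pairs separate in this way was not tested. The I-E α gene is broken in this strain background, and its pseudogene H2-Ea-ps was at 0 in 5 libraries and at 0.0639 FPKM in the other, a level of about 1 fragment.

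Cd74 (XLOC_009194, chr18:60803849-60812652), the invariant chain, was at 2089 FPKM in WT and 2411 FPKM in Jmjd6-/- stroma without RANKL. It was at 2218 and 3652 FPKM in stimulated WT and at 2749 and 2629 FPKM in stimulated Jmjd6-/- stroma, so that WT replicate 1 lay between the unstimulated values. Ciita (XLOC_007214, chr16:10480072-10527564), the transactivator of all the class II genes above, was at 20.0 and 19.4 FPKM without RANKL, at 22.4 and 17.7 FPKM in stimulated WT and at 23.5 and 21.5 FPKM in stimulated Jmjd6-/- stroma. Stimulated WT libraries were thus both the second highest and the lowest for Ciita. In the annotation 329 exon bases of Ciita are shared with Dexi on the other strand, which was at 26.0 to 31.9 FPKM, and the division of fragments between them is uncertain, since the study ran Cufflinks with a second-strand library setting on libraries from the TruSeq RNA kit, which does not mark strand.

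H2-DMa (XLOC_008148, chr17:34122832-34139101) and H2-DMb1 (XLOC_008150, chr17:34153191-34160229) encode the α chain and a β chain of the peptide editor H2-DM. H2-DMa was at 88.2 and 68.7 FPKM in unstimulated WT and Jmjd6-/- stroma, at 64.8 and 93.5 FPKM in stimulated WT and at 75.5 and 71.6 FPKM in stimulated Jmjd6-/- stroma, so that the stimulated WT pair spanned all the other values. H2-DMb1 was at 43.8 and 40.1 FPKM without RANKL, at 53.7 and 69.4 FPKM in stimulated WT and at 54.9 and 48.0 FPKM in stimulated Jmjd6-/- stroma, above both unstimulated libraries in all 4. H2-DMb1 lies beside H2-DMb2 (XLOC_008149, chr17:34145416-34151095), a near-identical copy, and the division of fragments between them is uncertain. H2-DMb2 moved more. It was at 5.29 and 4.83 FPKM without RANKL, at 41.4 and 44.5 FPKM in stimulated WT and at 26.2 and 22.2 FPKM in stimulated Jmjd6-/- stroma. The sum of both β genes was 49.1 and 45.0 FPKM in the unstimulated libraries, 95.1 and 113.9 FPKM in stimulated WT and 81.0 and 70.2 FPKM in stimulated Jmjd6-/- stroma.

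H2-Oa (XLOC_008147, chr17:34083843-34095309) and H2-Ob (XLOC_008154, chr17:34238905-34245908) encode the α and β chain of H2-O, the inhibitor of H2-DM. Without RANKL, H2-Oa was at 7.28 FPKM in WT and 6.35 FPKM in Jmjd6-/- stroma. RANKL-stimulated WT stroma had 24.1 and 30.5 FPKM, and RANKL-stimulated Jmjd6-/- stroma 15.03 and 12.7 FPKM. The 3 pairs of libraries formed separate ranges, with the stimulated Jmjd6-/- libraries between the unstimulated and the stimulated WT libraries. The means under RANKL were 27.3 ± 4.51 FPKM (SD, n = 2) in WT and 13.9 ± 1.64 FPKM in Jmjd6-/- stroma. H2-Oa shares 321 exon bases with BC051537 on the other strand, which was at 0.137 FPKM or less in each library. H2-Ob followed the same order at a far lower level. It was at 0.0554 FPKM in unstimulated WT, 0.105 FPKM in unstimulated Jmjd6-/-, 0.727 and 0.797 FPKM in stimulated WT, and 0.242 and 0.302 FPKM in stimulated Jmjd6-/- stroma. From the estimated depths, these values stand for about 4, 4, 53, 31, 16 and 15 fragments. Per unit of depth, the H2-Ob level in WT stroma with RANKL was 14.4 times that without (95% exact interval for the ratio of 2 Poisson counts 5.43 to 54.2), and in Jmjd6-/- stroma 2.65 times (0.935 to 10.3). Under RANKL, Jmjd6-/- stroma had 0.356 times the WT level (0.228 to 0.544). These intervals cover counting error only, not the spread between cultures. Relative to its target H2-DMa, H2-Oa was at 8.25 and 9.24% without RANKL, at 37.3 and 32.6% in stimulated WT and at 19.9 and 17.8% in stimulated Jmjd6-/- stroma.

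Ctss (XLOC_012446, chr3:95526786-95556403), the protease that cuts the invariant chain, was at 74.1 and 69.2 FPKM in unstimulated WT and Jmjd6-/- stroma. It was at 117.4 and 154 FPKM in stimulated WT and at 86.3 and 98.8 FPKM in stimulated Jmjd6-/- stroma. As for H2-Oa, the stimulated Jmjd6-/- libraries lay between the unstimulated and the stimulated WT libraries.

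**Figure D2:**
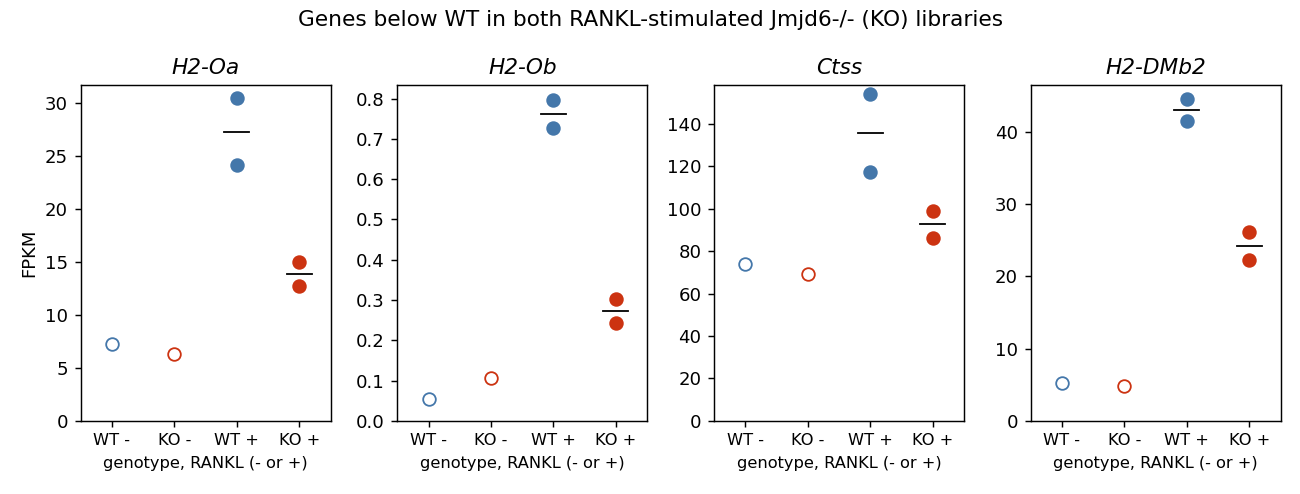
FPKM, from 0, of H2-Oa, H2-Ob, Ctss and the neighbouring gene H2-DMb2 in WT and Jmjd6-/- (KO) stroma without (-) and with (+) RANKL. Each point is 1 library and each bar the mean of 2. The 4 genes were chosen because their stimulated Jmjd6-/- points lie below the stimulated WT points. These points also lie above the unstimulated points. H2-Eb2, which overlapped between the genotypes, is not drawn.

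Which members did RANKL change? The 4 stimulated libraries were compared with the 2 unstimulated libraries with limma on log2(FPKM + 0.1), with genotype as a term and with Benjamini-Hochberg adjustment over the 15894 genes that had a mean of at least 0.1 FPKM. All 10 members passed this filter. By this test 5 of the 10 rose and none fell at an adjusted p under 0.05, where 10.5% of all genes tested rose and 4.11% fell. The median log2 change of the members was 0.48, beside -0.02 for all genes tested. Without regard to the test, 6 of 10 members, the 5 called and H2-DMb1, had all 4 stimulated libraries above both unstimulated ones, as did 18.9% of all genes. No member had all 4 below both, which 18.5% of all genes had.

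The largest fitted changes were those of the H2-O genes. H2-Ob rose by 1.66 on the log2 scale (SE 0.41, adjusted p = 0.0404 from limma), a value that the added constant of 0.1 FPKM holds down for so low a gene. H2-Oa rose by 1.497 (SE 0.20, adjusted p = 0.00417 from limma). Among the chains, H2-Eb1 rose by 0.73 (SE 0.14, adjusted p = 0.0171) and H2-Aa by 0.55 (SE 0.13, adjusted p = 0.0391), both from limma. Ctss rose by 0.64 (SE 0.15, adjusted p = 0.0369 from limma). Of the members not called, H2-DMb1 came nearest, with a log2 change of 0.42 (95% interval 0.12 to 0.71, adjusted p = 0.0738 from limma). The log2 change was 0.30 for Cd74 (95% interval -0.21 to 0.81), 0.16 for H2-Ab1 (-0.28 to 0.61), 0.10 for Ciita (-0.20 to 0.40) and -0.04 for H2-DMa (-0.41 to 0.33). Changes within these intervals were not detectable here, and they do not show that the genes stayed level.

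The calls depend on the 2 unstimulated libraries. Without the unstimulated WT library no member was called, with an adjusted p from limma of 0.0534 for H2-Oa, 0.229 for H2-Eb1 and 0.339 to 0.431 for H2-Aa, H2-Ob and Ctss. Without the unstimulated Jmjd6-/- library, H2-Oa and H2-Ob were called. Without either Jmjd6-/- RANKL library H2-Oa alone was called. H2-Ob was not called without either WT RANKL library, at an adjusted p of 0.0580 and 0.0586 from limma, and H2-DMb1 was, at 0.0229 and 0.0295. In all of these fits the 5 genes kept a positive change. Without a filter on low values no member was called, and the adjusted p of H2-Oa was 0.0670 from limma. Over 15 alternatives the adjusted p of H2-Oa ranged from 0.00273 to 0.0670 and that of H2-Eb1 from 0.00294 to 0.229.

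**Figure D3:**
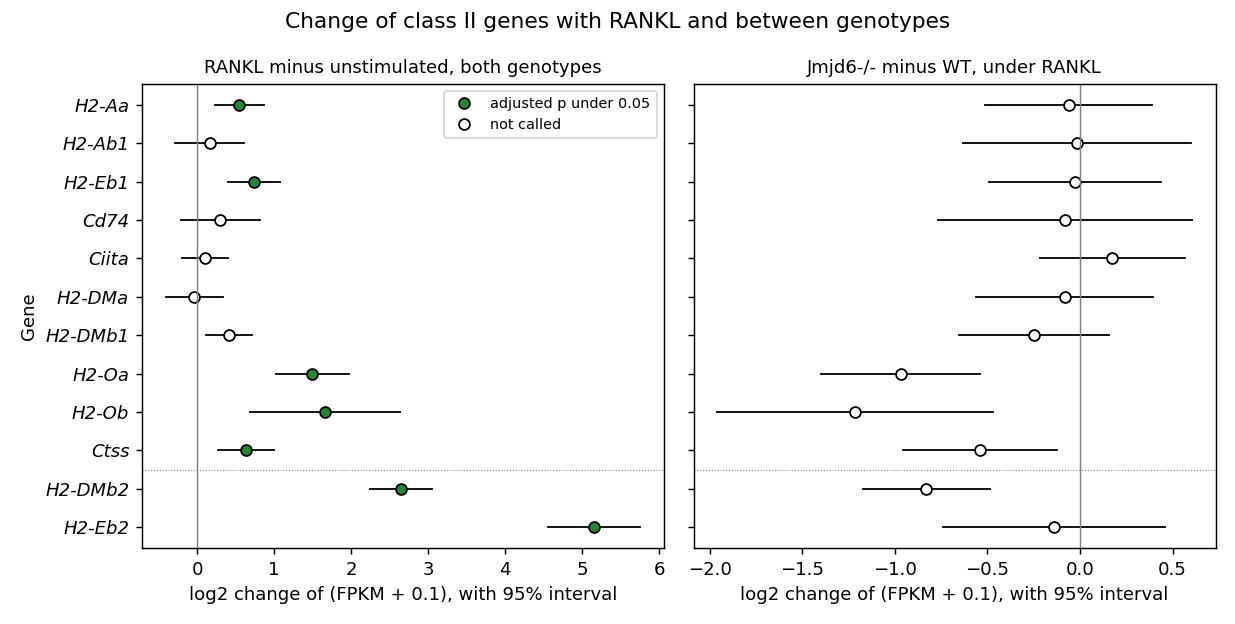
Log2 change of FPKM + 0.1 with its 95% interval from limma for the 10 members and, under the dotted line, H2-DMb2 and H2-Eb2. On the left RANKL minus unstimulated over both genotypes, with 5 members past the threshold (filled), and on the right Jmjd6-/- minus WT under RANKL, with none.

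Did the stimulated genotypes differ? In a limma model that gave each of the 4 conditions its own mean, none of the 10 members passed the adjusted threshold between the stimulated Jmjd6-/- and WT libraries, where 1.82% of all genes tested were called lower and 0.516% higher in Jmjd6-/- stroma. At an unadjusted p under 0.05 there were 3, H2-Oa, H2-Ob and Ctss, and all were lower in Jmjd6-/- stroma. At that level 12.3% of all genes tested were lower and 6.52% higher. H2-Oa differed by -0.97 on the log2 scale (SE 0.17, 95% interval -1.40 to -0.54, adjusted p = 0.0587 from limma). H2-Ob differed by -1.22 (SE 0.30, 95% interval -1.96 to -0.47, adjusted p = 0.104 from limma). Ctss differed by -0.54 (SE 0.17, 95% interval -0.96 to -0.13, adjusted p = 0.167 from limma). These were also the 3 of 10 members with both Jmjd6-/- libraries below both WT libraries, a share near that of all genes, 26.2%. No member had both above both, which 24.5% of all genes had. The other members differed by -0.25 (H2-DMb1) to 0.18 (Ciita) on the log2 scale. For H2-Aa, H2-Ab1 and H2-Eb1 the 95% intervals ran from -0.51 to 0.39, from -0.63 to 0.60 and from -0.49 to 0.44, and for Cd74 from -0.77 to 0.60, so that differences of up to about these sizes could not be seen.

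The nearness of H2-Oa to the threshold makes its call depend on the setting. With 1 WT RANKL library left out, the spread in this model came only from the stimulated Jmjd6-/- pair, which differed less than the WT pair. Calls in these fits are therefore not listed by gene. The log2 difference of H2-Oa was -1.14 without WT replicate 1 and -0.80 without WT replicate 2. Over 14 alternatives its adjusted p ranged from 0.000996 to 0.370 and its log2 difference from -1.14 to -0.80. Without WT replicate 1 the log2 difference was -0.74 for Ctss, -0.44 for Cd74 and -0.35 for H2-DMa. Without WT replicate 2, Cd74 and H2-DMa had the opposite sign, at 0.28 and 0.18. The sign of the genotype difference of these 2 genes, and of H2-Aa, H2-Ab1 and H2-Eb1, therefore depends on which WT library is used.

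In the unstimulated libraries, with 1 library for each genotype and no test, the log2 ratio of Jmjd6-/- to WT was -0.36 for H2-DMa, the largest in size after that of H2-Ob, 0.40, whose values stand for 4 fragments in each library. For H2-Aa, H2-Ab1, H2-Eb1, Ciita and Ctss it lay between -0.10 and 0.07. It was 0.21 for Cd74, -0.19 for H2-Oa and -0.13 for H2-DMb1.

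Did RANKL act to a different extent in the genotypes? On the log2 scale H2-Oa was 1.88 higher with RANKL in WT and 1.11 higher in Jmjd6-/- stroma. H2-Ob was 2.47 and 0.85 higher, and Ctss 0.86 and 0.42 higher. The test of the difference itself in limma called none of the 15894 genes (0%) at an adjusted p under 0.05, while 4.18% of genes had an unadjusted p under 0.05. H2-Oa (difference -0.77, unadjusted p = 0.0444) and H2-Ob (-1.62, unadjusted p = 0.0225) were the 2 of 10 members at that level in limma, and neither passed the adjustment. A difference of responses was therefore not shown for any member, with 1 unstimulated library for each genotype.

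By the study's own selection rule, a largest over smallest value above 3 after adding 0.1 FPKM, 2 of the 10 members passed, H2-Oa and H2-Ob, where 14.3% of the 22513 entries passed. The next members were Ctss, with a ratio of 2.22, and H2-Eb1, with 2.01.

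Other genes of the pathway were taken from lists given below by role. Of the other class II genes, H2-DMb2 and H2-Eb2 both rose with RANKL, by 2.65 (SE 0.17, adjusted p = 0.000221 from limma) and 5.15 (SE 0.25, adjusted p = 7.3e-05 from limma) on the log2 scale. H2-Eb2, a β chain gene beside H2-Eb1 with the promoter module shown above, was at 0.366 and 0.681 FPKM without RANKL, at 27.2 and 18.5 FPKM in stimulated WT and at 22.7 and 18.3 FPKM in stimulated Jmjd6-/- stroma. The genotypes overlapped for H2-Eb2. H2-DMb2 was 0.83 lower on the log2 scale in stimulated Jmjd6-/- stroma (95% interval -1.17 to -0.49, adjusted p = 0.0512 from limma), just outside the threshold.

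Among 9 genes of antigen processing, 2 rose with RANKL, 1 fell and 6 were not called, with a median log2 change of 0.04. The exopeptidases Ctsz and Ctsh rose, by 1.11 (adjusted p = 0.00593) and 0.89 (adjusted p = 0.0163) in limma. Prss16, the thymus-specific serine protease of cTECs, fell by 0.59 (adjusted p = 0.0352 in limma). It was at 4345 and 3785 FPKM without RANKL and at 2506 to 2925 FPKM with RANKL. Ctsl, the cathepsin that cuts the invariant chain in cTECs, was at 5422 and 5619 FPKM without RANKL, at 3557 and 3837 FPKM in stimulated WT and at 4531 and 4285 FPKM in stimulated Jmjd6-/- stroma. Its values did not overlap between stimulated and unstimulated stroma, but its log2 change of -0.45 did not pass the test (adjusted p = 0.0847 from limma). On the FPKM scale Ctsl was 24.9 to 81.2 times Ctss in each library. Ifi30, Ctsb, Ctsd, Lgmn and Cst3 were not called, with log2 changes from -0.19 to 0.21.

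All 3 genes of class II turnover fell with RANKL. March1, a ubiquitin ligase that removes class II from the surface, fell by 1.32 on the log2 scale (SE 0.19, adjusted p = 0.00596 from limma), from 2.47 and 2.41 FPKM to 0.850 to 1.11 FPKM. Its relative March8 fell by 0.38 (adjusted p = 0.0434 from limma). Cd83, which protects class II from March8 in cTECs, fell by 0.42 (adjusted p = 0.0338 from limma), from 400.0 and 370.2 FPKM to 269 to 319 FPKM. None of the 3 was called between the genotypes.

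The 8 genes of the complex on which Ciita docks (Rfx5, Rfxap, Rfxank, Creb1, Atf1, Nfya, Nfyb and Nfyc) gave no call in either comparison, with a median log2 change of -0.11 with RANKL. Of 9 genes of the interferon-γ axis, which induces Ciita in many cells, 8 passed the filter, and Socs1 and Ifngr2 rose with RANKL, by 0.95 and 0.41 on the log2 scale (adjusted p = 0.00563 and 0.0216 from limma). Ifng itself stood at 4 estimated fragments or fewer in each library. None of the 8 was called between genotypes.

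Since class II genes are also made by B-cells, dendritic cells and macrophages, the markers of these cells were read beside the members. In bulk RNA, fewer cells of a type and less RNA per cell cannot be told apart. The T-cell markers Cd3e, Cd3d, Cd3g, Cd8a, Ptcra and Rag1 were under 0.5 FPKM in all libraries, as were the B-cell markers Cd79a, Ms4a1, Pax5 and Blk and the dendritic cell markers Flt3, Xcr1, Clec9a, Siglech and Cd209a. Of these, Siglech was at 0 in all libraries. The other 2 of the 8 T-cell markers were Cd4, at 0.332 to 1.45 FPKM and not called, and Lck. Lck was at 0.610 and 0.390 FPKM without RANKL, at 1.91 and 1.71 FPKM in stimulated WT and at 0.728 and 0.797 FPKM in stimulated Jmjd6-/- stroma. It rose with RANKL (log2 change 1.12, adjusted p = 0.0226 from limma) and its log2 difference between the stimulated genotypes was -1.15 (adjusted p = 0.0765 from limma). As for H2-Oa, H2-Ob and Ctss, the stimulated Jmjd6-/- libraries lay between the unstimulated and the stimulated WT libraries. The 6 B-cell markers summed to 5.07 and 3.67 FPKM without RANKL, to 6.79 and 5.20 FPKM in stimulated WT and to 4.25 and 3.70 FPKM in stimulated Jmjd6-/- stroma. Most of this was Ebf1, at 2.82 to 5.02 FPKM, which without RANKL was at 4.52 FPKM in WT and 3.17 FPKM in Jmjd6-/- stroma. In the stimulated libraries the B-cell sum was lower in Jmjd6-/- than in WT stroma, as were H2-Oa and H2-Ob. Blk (0 without RANKL, 0.229 to 0.324 FPKM with it) and Cd79b (0.383 and 0.392 against 0.570 to 1.46 FPKM) rose with RANKL, as did H2-Oa and H2-Ob. Blk overlapped between the stimulated genotypes. The other 2 of the 4 B-cell markers tested were not called and had a negative log2 change with RANKL, -0.16 for Ebf1 and -0.28 for Cd79a. The part of T-cells and B-cells in the H2-Oa and H2-Ob values was not tested.

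The 9 dendritic cell markers summed to 2.12 and 2.79 FPKM without RANKL, to 7.90 and 10.1 FPKM in stimulated WT and to 10.4 and 12.2 FPKM in stimulated Jmjd6-/- stroma. Ccr7 and Itgax gave most of the latter, and both rose (log2 changes 3.78 and 1.94, adjusted p = 7.14e-05 and 0.00590 from limma). Itgax was at 1.43 and 2.47 FPKM in stimulated WT and at 4.11 and 6.49 FPKM in stimulated Jmjd6-/- stroma, the opposite order to H2-Oa, H2-Ob and Ctss (log2 difference 1.41, adjusted p = 0.115 from limma). The 10 markers of macrophages, cells known to make cathepsin S, summed to 440 and 419 FPKM without RANKL, to 314 and 505 FPKM in stimulated WT and to 343 and 354 FPKM in stimulated Jmjd6-/- stroma. Of these 1 rose (Mrc1), 3 fell (Adgre1, Csf1r and Timd4) and 6 were not called with RANKL. Between the stimulated genotypes none was called, and 9 of 10 had a negative log2 difference (median -0.29, beside 0.01 for all genes tested). Mrc1, Cd68, Fcgr1 and Cx3cr1 had both Jmjd6-/- libraries below both WT libraries, as had Ctss and 26.2% of all genes tested. Ctss rose with RANKL, and the part of macrophages in it was not tested. The 5 general haematopoietic markers summed to 43.9 to 65.7 FPKM over the libraries. Of these Ptprc (CD45) fell with RANKL (log2 change -1.001, adjusted p = 0.00547 from limma), and 4 were not called. Their sum and that of the macrophage markers were highest in WT RANKL replicate 2, which also had the highest value of 9 members.

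The cTEC markers were far more abundant, and the mTEC sum, also higher, was mostly Krt5 (1006 to 1977 FPKM). The 9 cTEC markers summed to 14566 and 12859 FPKM without RANKL and to 9467 to 11669 FPKM with it, with 3 of 9 called lower (Prss16, Ly75 and Cxcl12). Of 9 mTEC markers, 6 rose with RANKL (Krt14, Cldn4, Aire, Fezf2, Cd80 and Tnfrsf11a). The mTEC sum was 1738 and 2169 FPKM without RANKL, 1377 and 1858 FPKM in stimulated WT and 2281 and 2271 FPKM in stimulated Jmjd6-/- stroma. Krt5, Krt14, Cldn4 and Cd80 were above WT in both stimulated Jmjd6-/- libraries and Epcam, Aire and Fezf2 below, with none called. Of all genes tested, 24.5% lay above in this way and 26.2% below. Mesenchymal markers summed to 452 and 400.2 FPKM in stimulated WT and 282 and 278 FPKM in stimulated Jmjd6-/- stroma, and endothelial ones to 9.67 and 10.7 against 3.56 and 3.13 FPKM. Without RANKL the mesenchymal sum was 388 FPKM in WT and 177 FPKM in Jmjd6-/- stroma, and the endothelial sum 20.4 and 6.71 FPKM. H2-Oa (7.28 and 6.35 FPKM) and Ctss (74.1 and 69.2 FPKM) differed less there. Under RANKL, 1 of 6 mesenchymal (Col1a2) and 2 of 4 endothelial markers (Pecam1 and Cdh5) were called lower in Jmjd6-/- stroma, where 1.82% of all genes were. The mesenchymal and endothelial sums were thus lower in Jmjd6-/- stroma with and without RANKL. The mTEC sum, mostly Krt5, was higher, beside the lower values of H2-Oa, H2-Ob and Ctss under RANKL. The part of these cells in the members' values was not tested.

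**Figure D4:**
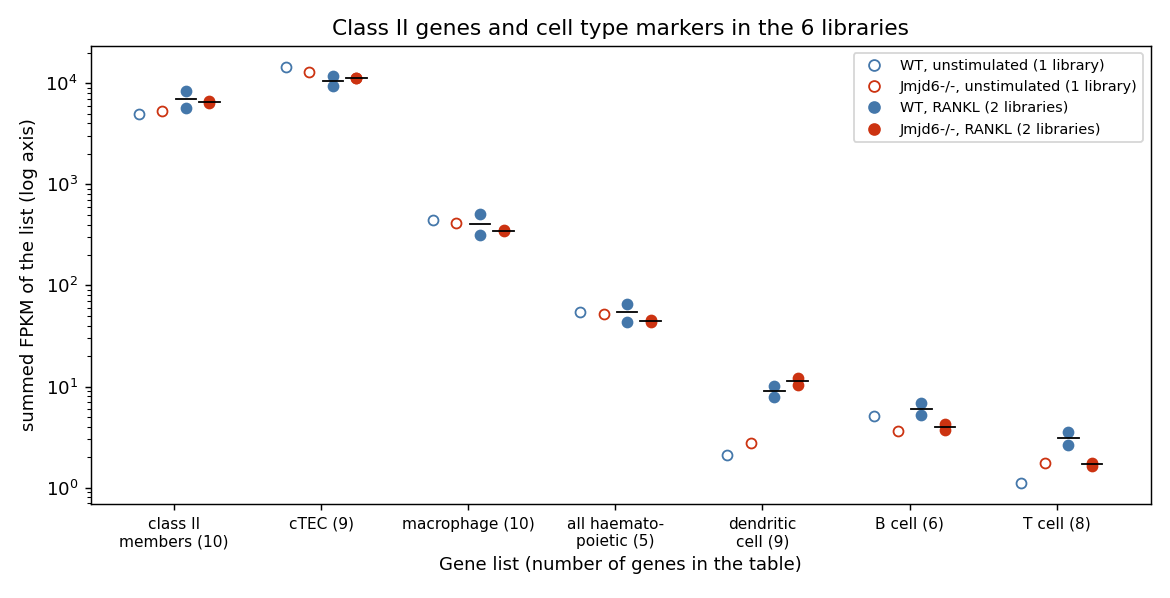
Summed FPKM on a log axis of the 10 members and of marker lists of cTECs and haematopoietic cells, with a point for each of the 6 libraries and a bar for the mean of 2. The mTEC list, with sums of 1377 to 2281 FPKM, is not drawn. The class II sum lies between 4942 and 8322 FPKM, between the cTEC and the macrophage sums, while the T-cell, B-cell and dendritic cell sums stay at 12.2 FPKM or less.

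To see which genes had the most similar course, the mean centred log2 profile of H2-Aa, H2-Ab1, H2-Eb1 and Cd74 over the 6 libraries was compared with that of the same 12587 entries. The 10 nearest genes outside the members were Ntmt1, Pgs1, Znhit1, Prickle3, Gars, Pex10, Yars, Fbl, Bin1 and Tmem147, with a root mean square difference of 0.037 to 0.066 on the log2 scale. They include the tRNA synthetases Gars and Yars and the nucleolar protein fibrillarin (Fbl), and none is on the class II lists. WT RANKL replicate 2 was highest in all 10, as in Ntmt1 with 12.6 and 12.8 FPKM without RANKL, 14.9 and 21.2 FPKM in stimulated WT and 16.8 and 16.5 FPKM in stimulated Jmjd6-/- stroma. The members themselves ranked lower, with H2-Aa at 39, Cd74 at 53, H2-DMb1 at 128, H2-Ab1 at 235, H2-Eb1 at 298 and H2-Oa at 11379. The likeness rests on 6 libraries, of which the stimulated WT pair differed most.

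The promoter module and the changes with RANKL can be set side by side. Of the 5 members with the module in either form, H2-Aa, H2-Eb1, H2-Oa and H2-Ob rose and H2-DMb1 did not pass the test. Of the 2 members whose promoter was searched without a match, Ctss rose and H2-DMa had a log2 change of -0.04. With 7 promoters this is a description only.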

How the data were processed

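Poly-A RNA had been read as 101-bp pairs. The authors mapped filtered reads to mm10 and computed FPKM for each gene. The submitters' processing notes name TopHat2 2.0.10 and Cufflinks 2.1.1. The deposited FPKM were used as given, with no scaling to a common total, and all 6 columns were matched to samples by title. March1 and March8 stood under date-like symbols and Adgre1 as Emr1. Starts were counted from 0 in the file and are printed from 1. Some genes of the marker and pathway lists are not reported here. The members and gene lists were chosen with earlier results of these data known. Named genes are the 10 members, the listed pathway and marker genes, the 10 genes of most similar profile, and Jmjd6 and Aire as checks of the labels. Blk, Cd79b and H2-Eb2 were described after their values were seen, as listed genes.

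Fragment numbers per library were inferred from the spacing of low values. log2(FPKM + 0.1) was fitted with limma 3.58.1 in R 4.3.3 (mean-variance trend, mean of at least 0.1 FPKM, Benjamini-Hochberg adjustment over 15894 genes, threshold 0.05). The procedure was tested on simulated data. 95% intervals use limma's moderated spread. Alternatives changed the added constant, filter, trend, scaling, libraries and replicate block; removal of a GC content and length trend was chosen after seeing the data. Promoters came from RefSeq (GRCm38.p6). Protein sequences were not analysed here.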

Additional observations from a re-analysis of the deposited data

How the results depend on the processing

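Of the 417 member values under alternatives, most kept their direction and their side of the threshold (112 for the RANKL effect, 119 for genotype under RANKL and 124 for the difference of responses), and the cause of the moves below was not tested unless an alternative leaves out genes or libraries. RANKL effect: without the filter on low values, 788 genes rose, 299 fell and 0 members were called; without the trend 398 genes fell and 2 members were called; with an added constant of 1 FPKM 3 members were called; with the trend in GC content and length taken out 1072 genes fell. Genotype under RANKL: without the filter 1 gene was higher and 1 lower; with a constant of 0.01, 180 were lower, and with a filter at 1 FPKM 172; without the trend 1 member (H2-Ob) was called; with the GC trend taken out 245 genes were higher, 563 lower and 1 member (H2-Oa) was called, and H2-Aa (0.011), H2-Ab1 (0.11), H2-Eb1 (0.040) and Cd74 (0.023) turned positive. Difference of responses: without the filter 93 genes were higher and 83 lower, and 1248 had an unadjusted p under 0.05, against 319 with a filter at 1 FPKM. Range rule: 855 entries and 1 member (H2-Oa) passed with a constant of 1, and 6614 entries with 0.01. The looser X core gave the promoter module in 5 members in place of 4.

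Leaving out 1 library gave 623 to 2176 genes rising, 54 to 1499 falling and 0 to 5 members called for RANKL, 22 to 2428 higher, 82 to 1836 lower and 0 to 4 members called for genotype, and 0 to 4 higher, 0 to 1 lower and 392 to 3799 genes at an unadjusted p under 0.05 for the difference of responses. The log2 values whose sign turned ranged as follows. For RANKL they were -0.0098 to 0.21 for Ciita and -0.18 to 0.10 for H2-DMa. For genotype they were -0.21 to 0.092 for H2-Aa, -0.35 to 0.32 for H2-Ab1, -0.25 to 0.20 for H2-Eb1, -0.44 to 0.28 for Cd74 and -0.35 to 0.18 for H2-DMa. For the difference of responses they were -0.26 to 0.048 for H2-Aa, -0.41 to 0.26 for H2-Ab1, -0.32 to 0.13 for H2-Eb1, -0.65 to 0.071 for Cd74 and -0.31 to 0.062 for H2-DMb1.

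The replicate numbers did not pair the libraries (correlation of replicate differences between the genotypes -0.078 over 12587 genes). With a replicate block, 315 genes fell with RANKL and 2 members (H2-Eb1 and H2-Oa) were called. Between the genotypes 396 genes were higher, 1081 lower and 2 members (H2-Oa and Ctss) called, and the difference of responses had 27 genes higher and 67 lower. Depth limits H2-Ob, at 4 to 53 estimated fragments.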
